A study of Mus musculus with 10 samples.

Results

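The genes described here are 8 genes used to recognise regulatory T (Treg) cells and, for several of them, Treg cells of thymic origin: Foxp3, Ikzf2, Ikzf4, Nrp1, Gpr83, Swap70, Capg and Izumo1r. They were taken by symbol from a table of 55291 mouse genes, and all 8 were among the 20068 genes that passed the filter on low counts. RNA sequencing was done on Treg cells sorted from the CD4+ T cells of Foxp3YFP-cre mice. Every group carried this allele, which places a yellow fluorescent protein fused to Cre recombinase under the Foxp3 locus, so no library comes from mice without it. The Hepa1-6 group (n = 4 libraries) came from tumours of a mouse hepatoma line injected under the skin and taken at day 23. The E.G7 group (n = 2) came from tumours of a mouse T lymphoma line, likewise under the skin, taken at day 21. The LN group (n = 4) came from lymph nodes of mice with no tumour and no treatment. The design text holds that tumours contain many peripherally induced Treg cells while lymph nodes contain mainly thymic ones, and it asks which helper T cell programme the tumour cells resemble. No animal ages or pooling are given, each tumour model is 1 line, and nothing states that replicates are separate animals, so every p-value reflects variation among these libraries, and that variation may be technical.

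Foxp3 is the transcription factor that specifies the Treg lineage and is needed to keep it. Ikzf2 (Helios) and Ikzf4 (Eos) are zinc finger factors of the Ikaros family that act with FOXP3, and Nrp1 (neuropilin 1) is a surface receptor for semaphorins. Helios and neuropilin 1 have long served in mice as markers of thymic Treg cells, although activation can change both. Gpr83 is a G protein-coupled receptor and Izumo1r (folate receptor 4) a surface protein anchored to the membrane, both abundant on resting mouse Treg cells. Swap70 and Capg act on the actin cytoskeleton, Swap70 as a signalling adaptor and Capg as a protein that caps filament ends.

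Promoter windows from RefSeq (build GRCm38.p6, 250 bases before to 50 after the start site) were found for 6 of the 8 genes, with none in the table for Ikzf2 and Ikzf4. The windows of 3 genes are shown: Foxp3 because it defines the lineage, and Gpr83 and Izumo1r because they are neighbours on chromosome 9 and were both far lower in tumours. Capitals mark CG dinucleotides, the sites of DNA methylation. Each is written 5′ to 3′ on the gene's own strand.
Foxp3, chrX:7579426-7579725, plus strand: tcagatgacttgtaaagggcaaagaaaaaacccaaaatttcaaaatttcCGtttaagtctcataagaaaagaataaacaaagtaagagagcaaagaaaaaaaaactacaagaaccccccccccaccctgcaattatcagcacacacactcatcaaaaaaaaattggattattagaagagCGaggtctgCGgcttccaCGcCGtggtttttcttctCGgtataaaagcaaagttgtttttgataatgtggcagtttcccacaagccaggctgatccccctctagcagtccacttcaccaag
Gpr83, chr9:14859960-14860259, plus strand: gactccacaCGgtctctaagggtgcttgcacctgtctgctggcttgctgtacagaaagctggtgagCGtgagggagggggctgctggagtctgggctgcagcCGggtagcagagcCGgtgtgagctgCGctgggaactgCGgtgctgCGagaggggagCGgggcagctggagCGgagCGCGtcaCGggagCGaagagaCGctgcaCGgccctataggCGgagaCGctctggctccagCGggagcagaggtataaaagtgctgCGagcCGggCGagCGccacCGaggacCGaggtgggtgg
Izumo1r, chr9:14903718-14904017, minus strand: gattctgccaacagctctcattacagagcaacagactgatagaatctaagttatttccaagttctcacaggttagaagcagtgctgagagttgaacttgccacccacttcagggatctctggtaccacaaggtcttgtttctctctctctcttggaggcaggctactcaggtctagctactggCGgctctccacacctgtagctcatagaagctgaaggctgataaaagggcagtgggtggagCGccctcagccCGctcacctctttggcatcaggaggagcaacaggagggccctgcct
The Foxp3 window shown held 6 CG dinucleotides, the Gpr83 window 24 and the Izumo1r window 3, beside a median of 7 over 32851 mouse windows of the same length. The letters TATAAA, searched on both strands, occurred in 13.6% of all windows. They lay at -32 to -27 from the start site in the Foxp3 window shown and at -1 to 5 in Gpr83. The letters TGTGGT, the core read by RUNX factors, occurred in 16.8% of all windows and lay on the opposite strand at -127 to -122 in Izumo1r. A second Foxp3 window in the table, from another start site (chrX:7580233-7580532), held 8 CG dinucleotides and no TATAAA. These matches describe the letters and no binding was measured.

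Total counts were 26224286 to 26665325 per library in Hepa1-6, 26585350 and 26663336 in E.G7, and 22665563 to 24472849 in LN. Genes of CD4+ Treg cells were read in every group. Cd4 averaged 619 CPM in Hepa1-6, 661 CPM in E.G7 and 760 CPM in LN (CPM, reads per 1e6 counted reads after TMM scaling). Il2ra, the interleukin 2 receptor alpha chain, averaged 607, 284 and 585 CPM in the same order, and Cd3e averaged 482, 386 and 580 CPM. Foxp3 and Ctla4 are given below. The libraries hold no other T cell population for comparison, so equal purity of the groups is not shown. Markers of other cells were present in the tumour libraries. The 12 macrophage markers summed to 4066 to 4372 CPM in Hepa1-6, 753 to 784 CPM in E.G7 and 25.6 to 37.5 CPM in LN, and 9 of the 12 were under 1 CPM in LN. The 10 dendritic cell markers summed to 3512 to 3736, 766 to 780 and 36.1 to 41.5 CPM in these groups. H2-Ab1 and H2-Aa made up most of this sum in Hepa1-6 (2145 and 1256 CPM) and in E.G7 (349 and 229 CPM). Between tumours 6 of the 10 were higher in Hepa1-6 and 1, Ccr9, was lower, beside 26.1% and 19.6% of all genes. The 10 markers of CD8 T and NK cells summed to 1151 to 1237, 397 to 409 and 65.2 to 76.8 CPM in the same order of groups. The 9 hepatoma markers summed to 2772 to 2816 CPM in Hepa1-6, 118 to 122 CPM in E.G7 and 7.79 to 10.1 CPM in LN. Krt19 was at 0 in LN. Trf made up most of the E.G7 sum, averaging 1251 CPM in Hepa1-6, 115 CPM in E.G7 and 1.82 CPM in LN. Afp made up most of the LN sum and averaged 56.7, 1.96 and 6.48 CPM in the same order. Alb averaged 370, 0.055 and 0.039 CPM. Of the 7 tested, 5 were higher and 1 lower in E.G7 against LN, beside 32.7% and 27.2% of all genes. The 6 E.G7 lymphoma and thymocyte markers summed to 54.6 to 61.1 CPM in Hepa1-6, 218 to 222 CPM in E.G7 and 87.3 to 92.9 CPM in LN, where Cd1d1 made up most of the sum. Without Cd1d1 the other 5 summed to 2.74 to 3.18 CPM in Hepa1-6, 171 to 176 CPM in E.G7 and 2.10 to 2.85 CPM in LN. Of these, Trap1a averaged 0.052 CPM in Hepa1-6, 127 CPM in E.G7 and 0.049 CPM in LN, Dntt averaged 2.84, 46.6 and 2.30 CPM, and Rag1 and Rag2 were at 0 in both E.G7 and LN. The 10 stroma and endothelium markers summed to 204 to 217, 111 to 127 and 223 to 240 CPM, and the 8 B cell markers to 23.1 to 30.2, 34.8 to 36.3 and 20.8 to 25.6 CPM, in the same order. Pecam1 alone averaged 72.6, 78.7 and 228 CPM, and the 9 stroma and endothelium markers other than Pecam1 summed to 132 to 148 CPM in Hepa1-6, 40.0 to 41.0 CPM in E.G7 and 1.38 to 3.30 CPM in LN. The part of these cells in the results below was not tested.

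In Hepa1-6 tumours, 6 of the 8 genes were lower than in LN (Foxp3, Ikzf2, Ikzf4, Nrp1, Gpr83 and Izumo1r) and 2 were higher (Swap70 and Capg) by edgeR's quasi-likelihood test at a Benjamini-Hochberg adjusted p under 0.05. Of all genes tested, 31.1% were called lower and 37.0% higher in this comparison, and 68.0% in either direction, so a call by itself separates a gene little from the rest. The median log2 fold change of the 8 genes was -0.48, beside 0.04 over all genes tested. In E.G7 tumours Foxp3, Ikzf2, Ikzf4, Nrp1, Gpr83 and Izumo1r were lower than in LN, 6 in all, Swap70 was higher, and Capg did not pass, while 27.2% of all genes were called lower, 32.7% higher and 59.9% in either direction. The median of the 8 was -1.06 there, beside 0.01 over all genes. Both comparisons use the same 4 LN libraries. Between the tumours, 6 genes were higher in Hepa1-6 than in E.G7, Gpr83 was lower and Swap70 did not pass, against 26.1% of all genes higher, 19.6% lower and 45.6% in either direction. Their median was 0.41, beside 0.06 over all genes.

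**Figure D1:**
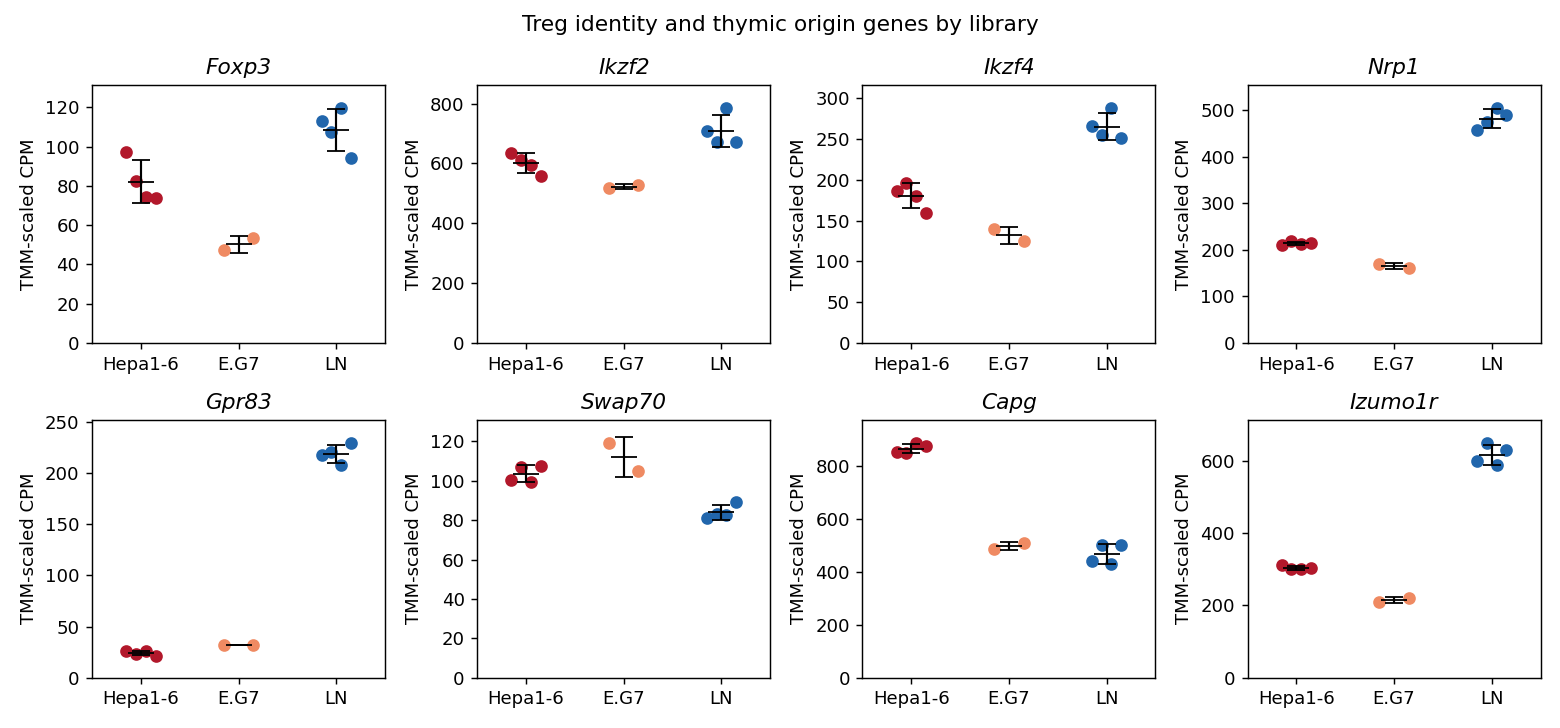
TMM-scaled CPM of each of the 8 genes (vertical axis, from 0) in each library of Hepa1-6, E.G7 and LN, with 1 point a library and bars for the mean and SD. Gpr83 sits between 21.3 and 31.9 CPM in all tumour libraries and at 207 CPM or more in LN, while Foxp3 of 1 Hepa1-6 library falls within the LN range.

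Foxp3, on chromosome X from 7573644 to 7595245 (mm10, plus strand), stood at 97.3, 82.7, 74.2 and 73.8 CPM in the Hepa1-6 libraries. It stood at 47.2 and 53.3 CPM in E.G7, and at 113, 108, 119.5 and 94.1 CPM in LN. Both E.G7 libraries lay below all others, while the highest Hepa1-6 library lay above the lowest LN library. Foxp3 fell by 0.40 on the log2 scale in Hepa1-6 against LN (SE 0.094, edgeR adjusted p = 0.00137) and by 1.11 in E.G7 against LN (SE 0.12, edgeR adjusted p = 1.25e-06). It was 0.71 higher on the log2 scale in Hepa1-6 than in E.G7 (SE 0.12, edgeR adjusted p = 0.000158). In sorted bulk cells, fewer Foxp3+ cells in a library and less Foxp3 RNA per cell cannot be told apart. The 14 pan T cell genes summed to 8465 to 8641 CPM in Hepa1-6, 8130 to 8143 CPM in E.G7, and 9798 to 10537 CPM in LN. They did not move as one: 3 were higher and 8 lower in Hepa1-6 against LN, and 1 higher and 9 lower in E.G7 against LN. Trbc2, a T cell receptor constant segment, averaged 444 CPM in Hepa1-6, 546 CPM in E.G7 and 1161 CPM in LN, and Lck, a receptor-proximal kinase, averaged 972, 991 and 1568 CPM, while Cd6, a surface glycoprotein, averaged 1182, 859 and 949 CPM. Per 1000 reads of those genes, Foxp3 had 9.59 ± 1.24 reads in Hepa1-6 (SD, n = 4), 6.17 ± 0.527 in E.G7 (SD, n = 2) and 10.7 ± 1.36 in LN (SD, n = 4). With libraries scaled to the pan T cell genes, the Hepa1-6 difference from LN was -0.16 and no longer passed (edgeR adjusted p = 0.181). E.G7 is itself a T lymphoma and may contribute such transcripts, which was not tested.

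The counted Foxp3 exons share 31.5% of their length with 4 other genes. The longest stretch, 853 bases, is shared with Flicr, a noncoding RNA that is transcribed from the Foxp3 locus on the same strand. Flicr averaged 2.92 CPM in Hepa1-6, 3.68 CPM in E.G7 and 14.8 CPM in LN. It fell by 2.34 on the log2 scale in Hepa1-6 against LN (SE 0.16, edgeR adjusted p = 1.69e-09) and by 2.01 in E.G7 against LN (SE 0.20, edgeR adjusted p = 2.97e-07). Ppp1r3f, on the opposite strand, averaged 1.54, 1.94 and 4.68 CPM in the same order of groups, and Ccdc22 had 1 read over all 10 libraries. No source used here says how reads in shared exons were assigned or whether strand was used, so the levels of Foxp3, Flicr and Ppp1r3f are uncertain.

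Ikzf2, on chromosome 1 from 69531214 to 69687245 (minus strand), stood at 637, 613, 595 and 559 CPM in Hepa1-6. It stood at 517 and 528 CPM in E.G7, and at 710, 673, 784 and 670.3 CPM in LN. The 3 groups did not overlap. The differences were the smallest among the 6 genes that were lower: Ikzf2 fell by 0.24 on the log2 scale in Hepa1-6 against LN (SE 0.055, edgeR adjusted p = 0.00127) and by 0.44 in E.G7 against LN (SE 0.069, edgeR adjusted p = 4.70e-05). Per 1000 pan T cell reads it had 70.3 ± 3.69 reads in Hepa1-6 (SD, n = 4), 64.2 ± 0.855 in E.G7 (SD, n = 2) and 69.9 ± 7.54 in LN (SD, n = 4). Scaled to those genes, its log2 difference from LN was 0.01 in Hepa1-6 (edgeR adjusted p = 0.927) and -0.12 in E.G7 (edgeR adjusted p = 0.207), and neither passed. Between tumours it was 0.20 higher in Hepa1-6 (SE 0.069, edgeR adjusted p = 0.0249), and that call was lost when any 1 of 4 libraries was left out: either E.G7 library, or Hepa1-6 replicate 1 or 2. It was also lost with upper-quartile scaling (0.14, edgeR adjusted p = 0.126), total counts (0.055, edgeR adjusted p = 0.573), pan T cell scaling (0.13, edgeR adjusted p = 0.214), no filter (0.14, edgeR adjusted p = 0.139) and a fit of these 2 groups alone (0.13, edgeR adjusted p = 0.0990).

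Ikzf4, on chromosome 10 from 128630843 to 128669358 (minus strand), stood at 186, 196, 180.5 and 160 CPM in Hepa1-6. It stood at 139 and 125 CPM in E.G7, and at 266, 255, 287.5 and 251 CPM in LN. All Hepa1-6 libraries lay below LN and above E.G7. Ikzf4 fell by 0.55 on the log2 scale in Hepa1-6 against LN (SE 0.067, edgeR adjusted p = 2.15e-06) and by 1.01 in E.G7 against LN (SE 0.086, edgeR adjusted p = 5.40e-08). It was 0.45 higher in Hepa1-6 than in E.G7 (SE 0.084, edgeR adjusted p = 0.000321). Within each library the ratio of Ikzf4 to Ikzf2 counts averaged -1.74 ± 0.073 on the log2 scale in Hepa1-6 (SD, n = 4), -1.99 ± 0.14 in E.G7 (SD, n = 2) and -1.42 ± 0.021 in LN (SD, n = 4), with no overlap between a tumour group and LN. This ratio does not depend on library scaling.

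Of the other 3 Ikaros family genes, 1 was lower and 0 higher in Hepa1-6 against LN, while 2 were higher and 0 lower in E.G7 against LN. Over all genes tested, 31.1% were lower and 37.0% higher in Hepa1-6, and 27.2% and 32.7% in E.G7. Ikzf1 (Ikaros), the founding member, averaged 175 CPM in Hepa1-6, 477 CPM in E.G7 and 388 CPM in LN. It fell by 1.15 on the log2 scale in Hepa1-6 (SE 0.072, edgeR adjusted p = 9.01e-10) and was 0.30 higher in E.G7 (SE 0.085, edgeR adjusted p = 0.00697), which did not pass when E.G7 replicate 1 was left out (edgeR adjusted p = 0.0763) or with upper-quartile scaling (edgeR adjusted p = 0.0772) or total counts (edgeR adjusted p = 0.0541). Ikzf3 (Aiolos) averaged 193, 211 and 181 CPM in Hepa1-6, E.G7 and LN. It passed in E.G7 against LN alone, at 0.22 on the log2 scale (SE 0.077, edgeR adjusted p = 0.0218), and did not pass when E.G7 replicate 1, LN replicate 1 or LN replicate 2 was left out (edgeR adjusted p = 0.186, 0.0656 and 0.0670).

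Nrp1, on chromosome 8 from 128358604 to 128503363 (plus strand), stood at 209.5, 218, 214 and 215 CPM in Hepa1-6. It stood at 170.5 and 162 CPM in E.G7, and at 457, 474, 504 and 491 CPM in LN. Every tumour library lay far below every LN library.
Nrp1 fell by 1.17 on the log2 scale in Hepa1-6 against LN (SE 0.046, edgeR adjusted p = 2.11e-12) and by 1.54 in E.G7 against LN (SE 0.060, edgeR adjusted p = 4.98e-12). It was 0.37 higher in Hepa1-6 than in E.G7 (SE 0.057, edgeR adjusted p = 6.44e-05). The ratio of Nrp1 to Ikzf2 counts within a library averaged -1.49 ± 0.093 on the log2 scale in Hepa1-6 (SD, n = 4), -1.65 ± 0.075 in E.G7 (SD, n = 2) and -0.56 ± 0.094 in LN (SD, n = 4). The 2 genes used to mark thymic Treg cells thus differed in size of change, and the highest tumour ratio, -1.38, lay below the lowest LN ratio, -0.64. Nrp1 is also made by dendritic cells, macrophages and endothelium. The macrophage and dendritic marker sums were higher in both tumours than in LN. Of the 9 stroma and endothelium markers other than Pecam1, 9 had a higher mean in Hepa1-6 than in LN and 8 in E.G7 than in LN (Tek was at 0 in E.G7 and in LN), while Pecam1 was lower in both tumours.

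Of the 9 genes listed around neuropilin 1, 6 were higher and 2 lower in Hepa1-6 against LN, with a median log2 fold change of 2.34. In E.G7 against LN, 5 were higher and 2 lower, with a median of 0.46. Plxna2, which is in the list, had no counts in E.G7 or LN. The medians over all genes tested were 0.04 and 0.01, with 37.0% higher and 31.1% lower in Hepa1-6, and 32.7% and 27.2% in E.G7. Nrp2, the close relative of Nrp1, averaged 32.3 CPM in Hepa1-6, 5.16 CPM in E.G7 and 2.74 CPM in LN. It was 3.56 higher on the log2 scale in Hepa1-6 than in LN (SE 0.18, edgeR adjusted p = 7.00e-11) and 0.92 higher in E.G7 than in LN (SE 0.23, edgeR adjusted p = 0.00253). Sema4a, a semaphorin that engages neuropilin 1 on mouse Treg cells, averaged 151 CPM in Hepa1-6, 42.0 CPM in E.G7 and 78.2 CPM in LN, so it was higher than LN in one tumour (0.95, SE 0.055, edgeR adjusted p = 2.63e-10) and lower in the other (-0.90, SE 0.071, edgeR adjusted p = 2.20e-08). Plxna1, a plexin that signals with neuropilins, averaged 37.7, 24.2 and 10.7 CPM in Hepa1-6, E.G7 and LN. Sema4a and Nrp2 are also made by myeloid cells, whose marker sums were higher in Hepa1-6 than in E.G7 and in E.G7 than in LN.

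**Figure D2:**
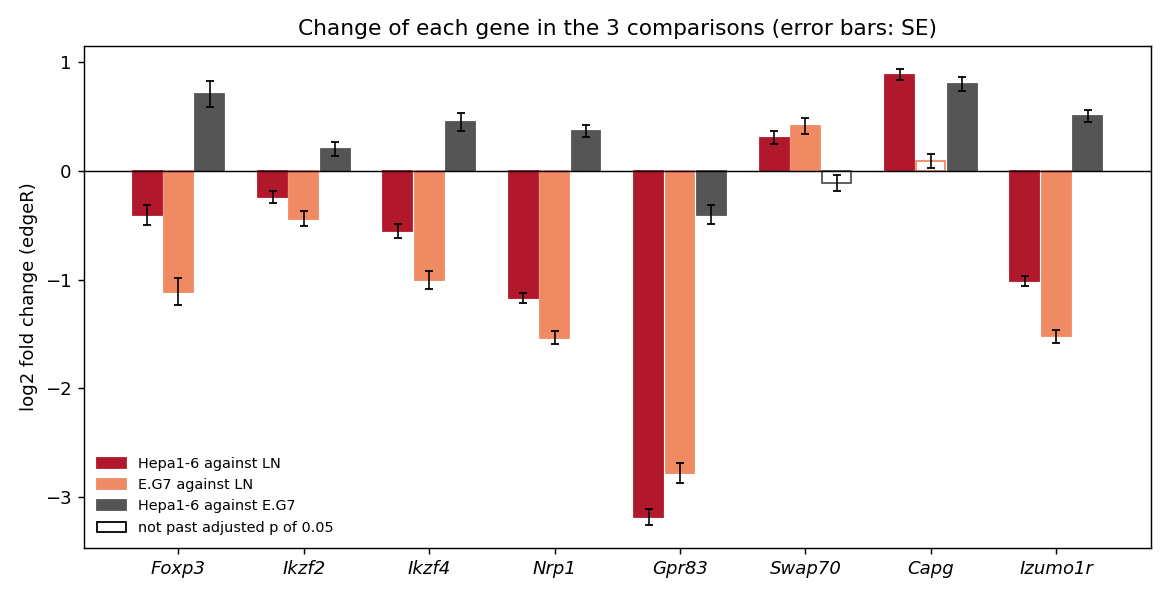
Log2 fold change from edgeR (vertical axis) of each gene in Hepa1-6 against LN, E.G7 against LN and Hepa1-6 against E.G7, with error bars for the SE and open bars where the adjusted p was 0.05 or more. Gpr83 is the lowest in both tumours, at -3.19 and -2.78, and the open bars are Capg in E.G7 against LN and Swap70 between the tumours.

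Gpr83, on chromosome 9 from 14860210 to 14870789 (plus strand), stood at 25.7, 22.9, 26.3 and 21.3 CPM in Hepa1-6. It stood at 31.6 and 31.9 CPM in E.G7, and at 218, 220.3, 207.5 and 229 CPM in LN. No tumour library came near LN, and both E.G7 libraries lay above all Hepa1-6 libraries. Gpr83 was 9.10-fold lower in Hepa1-6 than in LN (log2 -3.19, SE 0.072, edgeR adjusted p = 2.08e-15) and 6.89-fold lower in E.G7 than in LN (log2 -2.78, SE 0.093, edgeR adjusted p = 8.04e-13). Its direction between tumours ran opposite to the other called genes of the set, at -0.40 on the log2 scale in Hepa1-6 against E.G7 (SE 0.084, edgeR adjusted p = 0.000963). Per kilobase, Gpr83 exceeded 59.0% of tested genes in Hepa1-6, 66.2% in E.G7 and 94.4% in LN. The ratio of Gpr83 to Foxp3 counts within a library averaged -1.77 ± 0.19 on the log2 scale in Hepa1-6 (SD, n = 4), -0.66 ± 0.11 in E.G7 (SD, n = 2) and 1.02 ± 0.20 in LN (SD, n = 4), and no 2 groups overlapped.

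Izumo1r, on chromosome 9 from 14885814 to 14903949 (minus strand), lies 15025 bases beyond the end of Gpr83. It is the nearest neighbour on that side among genes past a minimum total count, with predicted genes left out. It stood at 313, 301.5, 301 and 304 CPM in Hepa1-6, at 209 and 221 CPM in E.G7, and at 600.0, 649.5, 588 and 630.1 CPM in LN. The 3 groups were apart, in the order E.G7, Hepa1-6, LN. Izumo1r fell by 1.02 on the log2 scale in Hepa1-6 against LN (SE 0.046, edgeR adjusted p = 1.14e-11) and by 1.52 in E.G7 against LN (SE 0.060, edgeR adjusted p = 5.41e-12). It was 0.50 higher in Hepa1-6 than in E.G7 (SE 0.057, edgeR adjusted p = 2.36e-06), where Gpr83 was lower. The log2 ratio of Gpr83 to Izumo1r counts averaged -3.67 ± 0.14 in Hepa1-6 (SD, n = 4), -2.76 ± 0.049 in E.G7 (SD, n = 2) and -1.49 ± 0.048 in LN (SD, n = 4).

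The genes that flank this pair by the same rule, named for their position, were not lower in both tumours. Mre11a, which encodes a DNA repair nuclease and lies 23087 bases before Gpr83, averaged 36.1 CPM in Hepa1-6, 54.0 CPM in E.G7 and 55.6 CPM in LN. It fell by 0.62 on the log2 scale in Hepa1-6 against LN (SE 0.088, edgeR adjusted p = 1.22e-05). In E.G7 against LN it differed by -0.04 and did not pass (SE 0.11, edgeR adjusted p = 0.764), and the sign of that small value turned under several settings. Panx1, a membrane channel gene 98179 bases beyond Izumo1r, averaged 97.6, 82.2 and 58.6 CPM in Hepa1-6, E.G7 and LN. It was 0.74 higher in Hepa1-6 than in LN (SE 0.23, edgeR adjusted p = 0.0193), which did not pass when LN replicate 4 was left out (edgeR adjusted p = 0.0552), or with upper-quartile scaling (edgeR adjusted p = 0.0501), total counts (edgeR adjusted p = 0.0683) or no filter (edgeR adjusted p = 0.0540), and the E.G7 difference did not pass (edgeR adjusted p = 0.161).

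Capg, on chromosome 6 from 72544391 to 72562983 (plus strand), stood at 855, 851, 888 and 876 CPM in Hepa1-6. It stood at 488 and 509 CPM in E.G7, and at 442.5, 502, 432 and 501 CPM in LN. The Hepa1-6 libraries lay far above both other groups, and the E.G7 libraries overlapped LN. Capg was 0.89 higher on the log2 scale in Hepa1-6 than in LN (SE 0.053, edgeR adjusted p = 4.23e-10) and 0.80 higher than in E.G7 (SE 0.067, edgeR adjusted p = 8.02e-08). In E.G7 against LN the log2 difference was 0.09, with a 95% interval from -0.05 to 0.22 (edgeR adjusted p = 0.262). That difference was 0.41 and passed when libraries were scaled to the pan T cell genes (edgeR adjusted p = 6.12e-06). Capg is also abundant in macrophages, and the summed macrophage markers, given above, were highest in Hepa1-6.

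Swap70, on chromosome 7 from 110221711 to 110283506 (plus strand), stood at 100.5, 107, 99.6 and 107.5 CPM in Hepa1-6. It stood at 119 and 105 CPM in E.G7, and at 81.1, 83.0, 82.7 and 89.5 CPM in LN. All tumour libraries lay above LN, and the tumour groups overlapped each other. Swap70 was 0.30 higher on the log2 scale in Hepa1-6 than in LN (SE 0.060, edgeR adjusted p = 0.000339) and 0.42 higher in E.G7 than in LN (SE 0.072, edgeR adjusted p = 0.000131). The Hepa1-6 call was lost with upper-quartile scaling (0.12, edgeR adjusted p = 0.0802) and with total counts (0.07, edgeR adjusted p = 0.302). Between tumours the log2 difference was -0.11, with a 95% interval from -0.27 to 0.04 (edgeR adjusted p = 0.236), and with total counts it was -0.26 and passed (edgeR adjusted p = 0.00700).

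Of 7 tested relatives of Swap70, Capg and Izumo1r, 4 were higher and 2 lower in Hepa1-6 against LN, and 2 were higher and 2 lower in E.G7 against LN. Over all genes tested, 37.0% were higher and 31.1% lower in Hepa1-6, and 32.7% and 27.2% in E.G7. Gsn (gelsolin), an actin-severing relative of Capg, averaged 250.1 CPM in Hepa1-6, 57.2 CPM in E.G7 and 33.9 CPM in LN. Vil1 (villin), an epithelial relative, averaged 114 CPM in Hepa1-6, 0.555 CPM in E.G7 and 0.712 CPM in LN. The hepatoma marker sums were 2772 to 2816, 118 to 122 and 7.79 to 10.1 CPM in the same order. The E.G7 sum was mostly Trf (115 CPM) and the LN sum mostly Afp (6.48 CPM). Def6, the closest relative of Swap70, averaged 125, 122 and 193 CPM in Hepa1-6, E.G7 and LN. It fell by 0.63 on the log2 scale in Hepa1-6 (SE 0.052, edgeR adjusted p = 2.78e-08) and by 0.67 in E.G7 (SE 0.066, edgeR adjusted p = 3.05e-07), while Swap70 was higher in both.

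**Figure D3:**
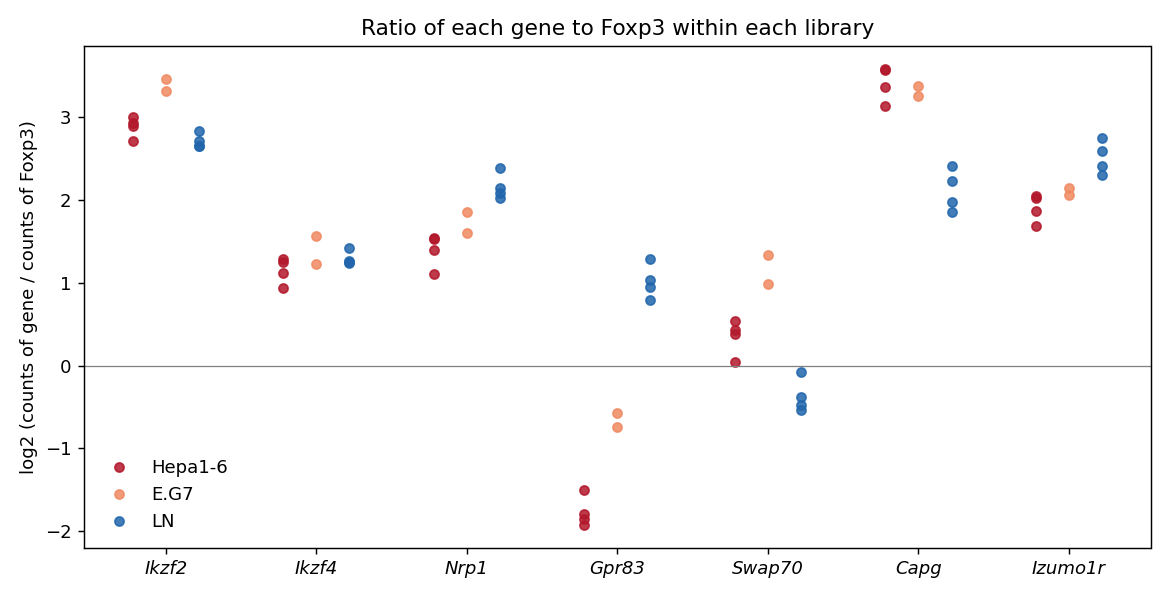
Log2 ratio of each gene's counts to Foxp3 counts (vertical axis) within each library of Hepa1-6, E.G7 and LN, 1 point a library, which library scaling does not alter. Gpr83 spans -1.92 to -1.50 in Hepa1-6 and 0.80 to 1.29 in LN, while Ikzf4 overlaps between all groups.

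Within libraries, the genes divided by Foxp3 fell into different patterns. Ikzf4 per Foxp3 averaged 1.14 ± 0.16 on the log2 scale in Hepa1-6 (SD, n = 4), 1.39 ± 0.24 in E.G7 (SD, n = 2) and 1.29 ± 0.084 in LN (SD, n = 4), with overlap between all groups. Capg per Foxp3 averaged 3.41 ± 0.21 in Hepa1-6, 3.31 ± 0.081 in E.G7 and 2.12 ± 0.25 in LN with the same numbers of libraries, so the tumours lay above LN, E.G7 included. Swap70 per Foxp3 averaged 0.35 ± 0.21, 1.16 ± 0.25 and -0.36 ± 0.20 in Hepa1-6, E.G7 and LN. Nrp1 per Foxp3 averaged 1.39 ± 0.20, 1.73 ± 0.18 and 2.15 ± 0.16, and Izumo1r per Foxp3 1.90 ± 0.17, 2.10 ± 0.066 and 2.51 ± 0.20, in that order of groups, both with every tumour library below LN. These ratios carry no test and all share the Foxp3 count as divisor.

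Levels were compared between genes per kilobase of exon (TMM-scaled RPKM). In Hepa1-6 the order was Capg at 343 ± 6.96, Izumo1r at 131 ± 2.40, Ikzf2 at 51.7 ± 2.81, Ikzf4 at 28.0 ± 2.37, Nrp1 at 21.9 ± 0.368, Foxp3 at 17.9 ± 2.40, Swap70 at 12.8 ± 0.524 and Gpr83 at 4.72 ± 0.459 RPKM (SD, n = 4). In E.G7 it was Capg at 197 ± 5.93, Izumo1r at 92.7 ± 3.79, Ikzf2 at 45.0 ± 0.647, Ikzf4 at 20.4 ± 1.63, Nrp1 at 17.0 ± 0.634, Swap70 at 13.9 ± 1.24, Foxp3 at 11.0 ± 0.948 and Gpr83 at 6.24 ± 0.0449 RPKM (SD, n = 2). In LN it was Izumo1r at 266 ± 12.1, Capg at 186 ± 14.8, Ikzf2 at 61.1 ± 4.58, Nrp1 at 49.2 ± 2.08, Gpr83 at 43.0 ± 1.76, Ikzf4 at 41.0 ± 2.52, Foxp3 at 23.7 ± 2.35 and Swap70 at 10.4 ± 0.457 RPKM (SD, n = 4). Gpr83 stood above Ikzf4 and Foxp3 in LN and last in both tumours, and Gpr83 and Ikzf4 in LN overlapped within 1 SD of their means. In every other pair of neighbours in these 3 orders the means lay more than their summed SDs apart.

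**Figure D4:**
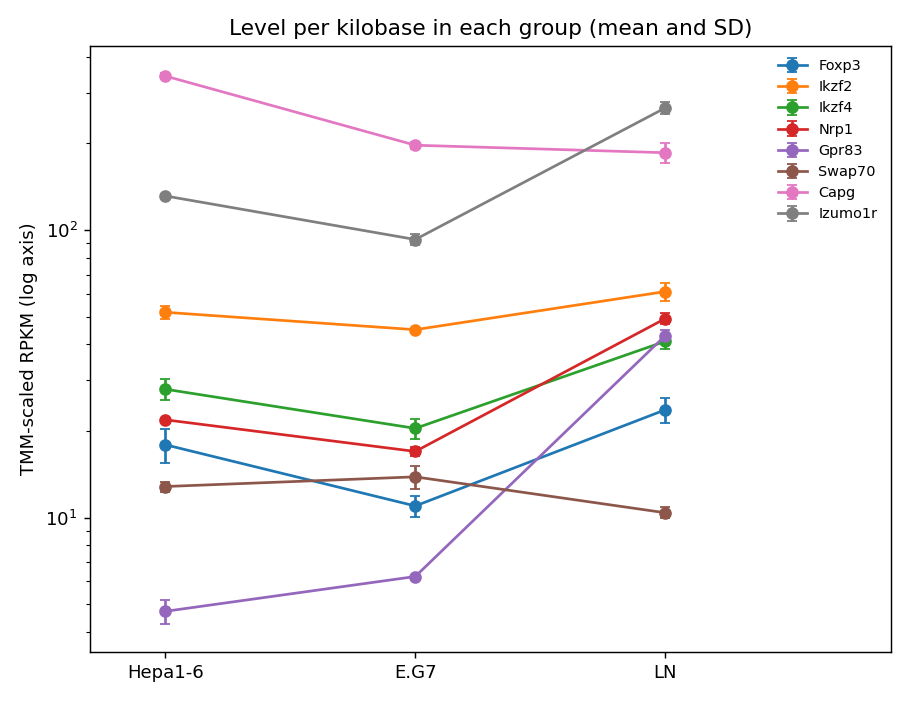
Mean TMM-scaled RPKM with SD (vertical log axis) of the 8 genes in Hepa1-6, E.G7 and LN, with lines joining the same gene. Capg leads in both tumours and Izumo1r leads in LN, and Gpr83 falls to the bottom in both tumours.

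By profile over the 10 libraries (root mean square difference of centred log2 CPM, among 9058 genes with a mean of at least 10 CPM), the most similar members were Nrp1 and Izumo1r at 0.10, then Foxp3 and Ikzf4 at 0.16. Gpr83 was at least 0.91 from every other member. Among the 3 genes nearest to each member were Plcg1 and Ppp1r18 for Foxp3, Fnbp4, Trip11 and Usp15 for Ikzf2, and Atf7 and Abi3 for Ikzf4. They were Rhoh, Ubash3a and Fbxo46 for Nrp1, Bcl2, Prg4 and Pik3ip1 for Gpr83, and Slc14a1, Trim65 and Fbxo46 for Izumo1r. For Swap70 they were Abcf1, Man2b2 and Nono, and for Capg they were Cyba, Dnpep and Ints4. The nearest gene lay 0.031 away for Nrp1 (Rhoh), 0.042 for Capg (Cyba) and 0.17 for Gpr83 (Bcl2).

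Other genes of Treg identity are given by their counts. Of 15 further Treg signature genes, 8 were higher and 3 lower in Hepa1-6 against LN, 7 higher and 6 lower in E.G7 against LN, and 13 higher and 2 lower in Hepa1-6 against E.G7. Their median log2 fold changes were 0.32, 0.28 and 0.47, beside 0.04, 0.01 and 0.06 over all genes tested. The shares of all genes higher and lower were 37.0% and 31.1%, 32.7% and 27.2%, and 26.1% and 19.6%, in that order. Ctla4, an inhibitory receptor, averaged 1410 CPM in Hepa1-6, 1261 CPM in E.G7 and 410 CPM in LN, and Tnfrsf9 (4-1BB), a costimulatory receptor, averaged 1555, 831 and 205 CPM. Both were higher in each tumour than in LN (edgeR adjusted p = 2.05e-15 and 1.31e-13 for Ctla4, 2.07e-16 and 2.01e-13 for Tnfrsf9, with Hepa1-6 first), where Foxp3 was lower. Between tumours Penk, which encodes proenkephalin, was higher in Hepa1-6 (390 CPM) than in E.G7 (150 CPM). So was Itgae, the CD103 integrin chain (351 CPM in Hepa1-6, 110.4 CPM in E.G7), at edgeR adjusted p = 4.98e-11 and 1.18e-10. In LN, Penk averaged 101 CPM and Itgae 320 CPM. Itgae was lower in E.G7 than in LN (edgeR adjusted p = 1.43e-10).

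Of 18 factors known to act on Foxp3 transcription, 4 were higher and 8 lower in Hepa1-6 against LN, with a median of -0.09, and 4 were higher and 11 lower in E.G7 against LN, with a median of -0.38. Nr4a1 and Nr4a3, nuclear receptors induced by T cell receptor signals, were among the higher ones. Over all genes tested, 37.0% were higher and 31.1% lower in Hepa1-6 against LN, with a median of 0.04. In E.G7 against LN these were 32.7%, 27.2% and 0.01. Nr4a1 averaged 1066 CPM in Hepa1-6, 911 CPM in E.G7 and 166 CPM in LN, a log2 fold change of 2.69 in Hepa1-6 (SE 0.045, edgeR adjusted p = 6.28e-17) and 2.46 in E.G7 (SE 0.050, edgeR adjusted p = 3.38e-15). Nr4a3 averaged 121, 102 and 17.6 CPM. Between tumours, 6 of the 18 were higher and 2 lower in Hepa1-6, against 26.1% and 19.6% of all genes tested. Dnmt1, the maintenance DNA methyltransferase, averaged 156 CPM in Hepa1-6, 286 CPM in E.G7 and 154 CPM in LN. Tet2, which oxidises methylcytosine, averaged 125, 74.0 and 108 CPM in that order. For Hepa1-6 against E.G7 the edgeR adjusted p was 2.92e-08 for Dnmt1 and 5.43e-06 for Tet2.

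Of 12 genes whose proteins bind or modify FOXP3, 4 were higher and 3 lower in Hepa1-6 against LN, 3 higher and 2 lower in E.G7 against LN, and 3 higher and 1 lower in Hepa1-6 against E.G7. The shares over all genes tested were 37.0% and 31.1%, 32.7% and 27.2%, and 26.1% and 19.6%, in that order. These counts thus do not set the 12 genes apart. Hif1a, the oxygen-sensing factor, averaged 1312 CPM in Hepa1-6, 916 CPM in E.G7 and 278 CPM in LN (log2 2.24 and 1.72 against LN, SE 0.048 and 0.054, edgeR adjusted p = 1.13e-15 and 4.18e-13). Foxp1, a forkhead factor that pairs with FOXP3, averaged 112, 291 and 530 CPM in the same groups. It fell by 2.25 on the log2 scale in Hepa1-6 against LN (SE 0.051, edgeR adjusted p = 2.45e-15), by 0.86 in E.G7 against LN (SE 0.062, edgeR adjusted p = 7.48e-09) and by 1.38 in Hepa1-6 against E.G7 (SE 0.058, edgeR adjusted p = 2.52e-11).

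Of 4 genes named for peripherally induced Treg cells, 1 was higher and 2 lower in Hepa1-6 against LN, and 1 was higher and 3 lower in E.G7 against LN. Over all genes tested, 37.0% were higher and 31.1% lower in Hepa1-6, and 32.7% and 27.2% in E.G7. Maf, a transcription factor of intestinal Treg cells, averaged 136 CPM in Hepa1-6, 76.8 CPM in E.G7 and 61.8 CPM in LN. It was 1.14 higher on the log2 scale in Hepa1-6 (SE 0.064, edgeR adjusted p = 1.77e-10) and 0.31 higher in E.G7 (SE 0.077, edgeR adjusted p = 0.00232), where the call was lost without E.G7 replicate 2 (edgeR adjusted p = 0.0729). Igfbp4, a binding protein for insulin-like growth factors, averaged 177 CPM in Hepa1-6, 32.7 CPM in E.G7 and 242 CPM in LN, and Dapl1 averaged 1.79, 2.74 and 6.47 CPM. Both were lower in each tumour than in LN.

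**Figure D5:**
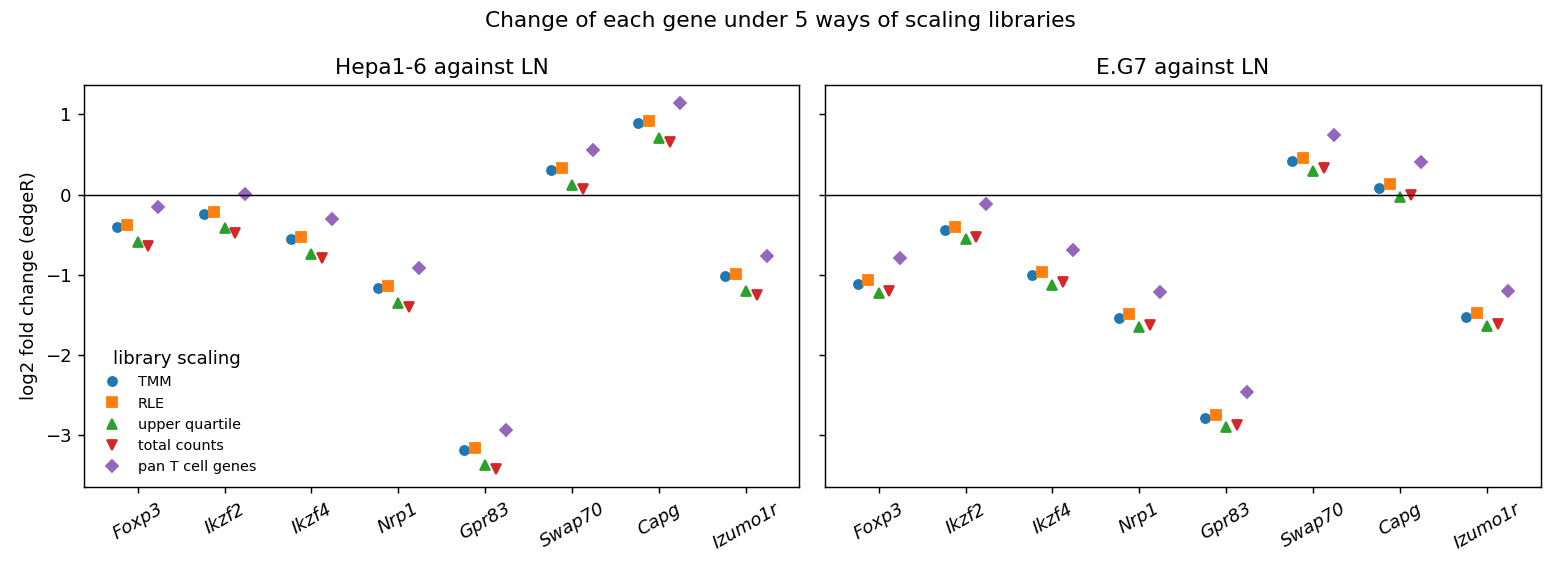
Log2 fold change from edgeR (vertical axis) of each gene in Hepa1-6 against LN and in E.G7 against LN under 5 ways of scaling libraries, 1 symbol a way. Ikzf2 moves to 0.01 in Hepa1-6 with pan T cell scaling, and Capg in E.G7 falls either side of 0, while Gpr83, Nrp1, Izumo1r and Ikzf4 stay below 0 in both.

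Scaling moved all genes together. With pan T cell scaling the median gene shifted by 0.25 in Hepa1-6 against LN and by 0.32 in E.G7 against LN, and with upper-quartile scaling and total counts it shifted by -0.17 and -0.22 in Hepa1-6 against LN. The share of calls that were higher was 54.3% in Hepa1-6 against LN, 68.3% with pan T cell scaling and 42.6% with total counts, and in E.G7 against LN it was 54.6% and, with pan T cell scaling, 71.2%. For Hepa1-6 against E.G7 it was 57.1%, and 44.3% with total counts. Changes of the size seen for Foxp3 in Hepa1-6, for Ikzf2 in both tumours, and for Swap70 in Hepa1-6 and between tumours are near these shifts. Those of Gpr83, Nrp1 and Izumo1r against LN exceed them. Swap70 in E.G7 against LN, at 0.42, ranged from 0.30 to 0.74 over the alternatives.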

How the data were processed

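Read counts and FPKM of 10 libraries were deposited by the authors. The deposited counts are whole numbers per gene with mm10 exon coordinates, in featureCounts layout per the file headers. The deposited FPKM values matched the counts per length times a constant within each library. The tools named in the submitters' processing notes are DESeq2, RSEM, HISAT2, Subread and featureCounts; their versions and strand setting are not given in the sources used here. Library construction was by an outside company on BGISEQ-500, per the labels.

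The counts were then tested with edgeR 4.0.16 under R 4.3.3: filterByExpr, TMM scaling, and a robust quasi-likelihood fit with a term per group on all 10 libraries (common coefficient of variation 13%). P-values were Benjamini-Hochberg adjusted over 20068 genes, with a threshold of 0.05. SE is the log2 fold change over the root of the F statistic. RPKM used exon length. Promoters came from RefSeq, GRCm38.p6. The model was checked on simulated data. Alternatives used limma 3.58.1, DESeq2 1.42.0, other scalings, filters, pseudocounts of 1 and 0.1 on FPKM, and leaving out each library.

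The 8 genes, the lists and the tests were chosen with earlier results of these data known. Named genes are members, for each list the 2 to 4 genes of lowest adjusted p, genes that overlap a member, and the 3 nearest profiles. Mre11a and Panx1 were added for their position, outside that rule. Some genes within the rule are not reported here. Replicates differed beyond sampling noise in every pair (chi-square per degree of freedom 7.41 to 18.9, genes with at least 20 counts), so none was merged.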

Additional observations from a re-analysis of the deposited data

Results flagged for a closer look

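Of 58 groups of 4 libraries looked at (1 gene in Hepa1-6 or LN), 2, both in LN, had 1 library whose gap to the nearest other took up most of the group's range, where chance gives about 1 in 20. Nr4a3 was at 16.5 CPM in LN replicate 4, with the other libraries at 17.8 to 18.0 CPM. That gap is small beside the level, with a coefficient of variation of 3.98% in the group. Vil1 was at 1.49 CPM in LN replicate 3, with the others at 0.356 to 0.505 CPM.

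The change against LN differed between the tumours by edgeR's direct test of Hepa1-6 against E.G7 for 26 of the genes named. Of all genes tested, 45.6% were called in this comparison. Most named genes outside the 8 were picked for low adjusted p in these data, Penk, Itgae, Dnmt1 and Tet2 in this very comparison. Their passing here is therefore no separate result. Of the members, the log2 difference (Hepa1-6 minus E.G7) was 0.71 for Foxp3, 0.20 for Ikzf2, 0.45 for Ikzf4, 0.37 for Nrp1, -0.40 for Gpr83, 0.80 for Capg and 0.50 for Izumo1r. Of the receptors and Treg signature genes it was 0.90 for Tnfrsf9, 0.16 for Ctla4, 1.38 for Penk and 1.67 for Itgae. Of the regulators it was -1.44 for Ikzf1, 0.23 for Nr4a1, 0.25 for Nr4a3, 0.52 for Hif1a, -1.38 for Foxp1, -0.87 for Dnmt1, 0.75 for Tet2 and 0.82 for Maf. Of the neuropilin and actin genes it was 2.65 for Nrp2, 1.85 for Sema4a, 0.64 for Plxna1, 2.13 for Gsn and 7.67 for Vil1. It was 2.43 for Igfbp4 and -0.58 for Mre11a. The calls of Ctla4, Nr4a1, Nr4a3 and Ikzf2 between tumours were each lost in more than 1 alternative. With total counts Ctla4, Nr4a1 and Nr4a3 were lost (edgeR adjusted p = 0.841, 0.221 and 0.327). Ctla4 and Nr4a3 were also lost with upper-quartile scaling (edgeR adjusted p = 0.122 and 0.0750) and pan T cell scaling (edgeR adjusted p = 0.198 and 0.106). No filter (edgeR adjusted p = 0.246 and 0.123) and these 2 groups alone (edgeR adjusted p = 0.154 and 0.0902) lost both too. Nr4a3 was lost without Hepa1-6 replicate 2 (edgeR adjusted p = 0.0508). Without E.G7 replicate 1 the log2 difference was 0.12 for Ctla4 and 0.19 for Nr4a3, and without replicate 2 it was 0.17 for Nr4a1.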

How the results depend on the processing

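Over all alternatives, 1601 values of the named genes kept their direction and side of the threshold, 42 lost the call, 4 gained one and 12 changed sign; the cause was not tested. Sign changes were Ikzf2 in Hepa1-6 against LN with pan T cell scaling (0.00776), Ikzf3 in Hepa1-6 against LN with upper-quartile scaling (-0.092) and total counts (-0.15), and Capg in E.G7 against LN with upper-quartile scaling (-0.029) and a filter of 10 CPM in 2 libraries (-0.00456). Mre11a in E.G7 against LN turned with RLE scaling (0.000624), DESeq2 (0.000625), the replicate block (0.00606) and pan T cell scaling (0.28), and ranged from -0.19 to 0.10 when 1 library was left out. Vil1 there ranged from -0.57 to 0.28, above 0 only without LN replicate 3.

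The count of members higher in Hepa1-6 against LN became 1 with upper-quartile scaling and with total counts, that in E.G7 against LN became 2 with pan T cell scaling, and that of members lower in Hepa1-6 against E.G7 became 2 with total counts. Over all genes in Hepa1-6 against LN, 4294 were higher and 4129 lower with the 10 CPM filter, and 3886 and 3855 were lower on log2(FPKM + 1) and log2(FPKM + 0.1). In E.G7 against LN, 3495 were lower with pan T cell scaling, 4050 higher with the 10 CPM filter, and 3535 and 3524 lower on the FPKM scales; fewer genes were tested in the filtered and FPKM settings.

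Replicate numbers did not pair the libraries: deviations of same-numbered libraries correlated between -0.049 and 0.029. With a replicate block, 7325 genes were higher and 6065 lower in Hepa1-6 against LN, 6170 and 4929 in E.G7 against LN, and 4900 and 3469 in Hepa1-6 against E.G7. E.G7 had 2 libraries; without 1 of them its spread is assumed to be like that of the other groups.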
